A study of Mus musculus with 22 samples.

Results

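Granzymes are serine proteases that cytotoxic lymphocytes store in secretory granules together with perforin, a pore-forming protein, and serglycin, a proteoglycan that holds both inside the granule. The genes described here are Gzma, Gzmb, Gzmc, Gzmk, Gzmm, Prf1 (perforin) and Srgn (serglycin), chosen by name from the deposited gene tables. They are 7 of 46603 genes in the count table, and all 7 passed the filter on low counts, as did 21183 genes in all. When a killer cell meets its target, perforin lets granzymes into the target cell, where granzyme B cleaves caspases and other proteins of the death programme. Naive CD8+ T cells carry little of this machinery and build it after the T cell receptor is engaged. Granzyme A and granzyme K are trypsin-like proteases, granzyme M prefers to cut after methionine or leucine, and granzyme C belongs to a rodent-specific group encoded beside Gzmb.

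The libraries came from mouse CD8+ T cells, purified by magnetic depletion from lymph nodes and spleen and sequenced in bulk. They were harvested either naive or following 24 h or 48 h of culture with immobilised anti-CD3 and soluble anti-CD28, which stimulate the T cell receptor complex and the CD28 costimulatory receptor. The KI group (line Tcaim KI Cd4Cre, genotype label hocre) had 3 mice with libraries naive, at 24 h and at 48 h. The wt group came from the same KI line (genotype label wtcre) and also had 3 mice at all 3 times. The KO group (line Tcaim KO Cd4Cre, genotype label hocre) had 2 mice, with libraries naive and at 48 h. Cd4Cre denotes Cre recombinase under the Cd4 promoter, which is active in developing T cells of both the CD4 and the CD8 lineage, and the genotype labels of all groups, wt included, end in cre. KI and wt mice were male in experiments 1 and 3 and female in experiment 5, and both KO mice (experiments 1 and 5) were female. No wt mice of the KO line were analysed here, so line and genotype cannot be told apart for KO. In experiment 1 the KO mouse was female and the wt mouse male, so sex cannot be told apart from them there. The mice's age is not given in the sources used here. Each mouse gave 1 library per time, and the labels assign it to an experiment, so an experiment number names the same mouse of a genotype at every time.

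Total counts ranged from 62551905 to 93489115 per library. Tcaim itself was at 141 ± 3.28 CPM (counts scaled to the library total, SD, n = 3) in naive KI and 14.8 ± 0.31 CPM in naive wt cells. In the libraries labelled KO it was at 14.9 and 19.6 CPM naive and at 11.7 and 5.99 CPM after 48 h, against 9.03 to 12 CPM in wt at 48 h. Total Tcaim counts thus did not set the libraries labelled KO apart from wt, and the sources used here do not state which exons the deletion removes. The summed level of 6 CD8 T cell markers (Cd8a, Cd8b1, Cd3e, Cd3d, Cd3g and Lck) was 2460 to 5315 CPM, with none of the 6 at 0 in any group. The KO mouse of experiment 1 stood apart. Its naive library held 184 CPM of Cd4 against 16.5 to 54.8 CPM in the other naive libraries, and 1219 CPM of 5 B cell markers against 118 to 411 CPM. It also held 172 CPM of 6 natural killer (NK) cell markers (Ncr1, Klrb1c, Klra8, Klra4, Klre1 and Klri2) against 23.6 to 83.6 CPM in the other naive libraries. The KO results that are described are therefore given with and without that mouse.

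The 7 genes lie at 5 places in the genome (GRCm38). Gzmb (ENSMUSG00000015437, chromosome 14, 56258838 to 56262260, minus strand) and Gzmc (ENSMUSG00000079186, chromosome 14, 56231441 to 56234656, minus strand) share a cluster. Gzma (ENSMUSG00000023132, chromosome 13, 113093825 to 113100981, minus strand) and Gzmk (ENSMUSG00000042385, chromosome 13, 113171608 to 113225908, minus strand) are neighbours in another. Gzmm (ENSMUSG00000054206, 79689020 to 79695261, plus strand), Prf1 (ENSMUSG00000037202, 61297833 to 61304680, plus strand) and Srgn (ENSMUSG00000020077, 62493833 to 62527451, minus strand) lie apart from each other on chromosome 10. No exon of the 7 genes overlapped an exon of another gene in the GENCODE annotation, and none of their transcripts shared a stretch of 75 bases, the read length, with a transcript of another gene.

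The upstream sequences of the members whose changes carry the results are shown for comparison. These are Gzmb and Gzmc, whose mRNA rose after activation, Gzma, which fell most, and Srgn, which differed between KI and wt at 48 h. Each line gives the 250 bases before the RefSeq start (GRCm38.p6), 5′ to 3′ on the gene's strand. Capitals mark matches, on either strand, to the AP-1 motif TGANTCA, the cyclic AMP response motif TGACGTCA, the RUNX motif TGTGGT or the TATA motif TATAAA.
Gzmb (chr14:56262335-56262584, minus strand): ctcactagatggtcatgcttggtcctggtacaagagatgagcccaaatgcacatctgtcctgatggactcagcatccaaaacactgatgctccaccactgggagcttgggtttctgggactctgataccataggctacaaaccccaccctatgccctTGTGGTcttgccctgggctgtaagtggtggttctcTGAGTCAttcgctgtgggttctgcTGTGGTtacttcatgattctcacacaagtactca
Gzmc (chr14:56234658-56234907, minus strand): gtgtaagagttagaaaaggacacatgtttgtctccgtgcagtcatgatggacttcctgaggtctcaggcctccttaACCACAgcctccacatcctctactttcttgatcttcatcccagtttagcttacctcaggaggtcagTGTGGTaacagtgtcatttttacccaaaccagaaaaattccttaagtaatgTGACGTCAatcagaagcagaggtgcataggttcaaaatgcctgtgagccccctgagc
Gzma (chr13:113100982-113101231, minus strand): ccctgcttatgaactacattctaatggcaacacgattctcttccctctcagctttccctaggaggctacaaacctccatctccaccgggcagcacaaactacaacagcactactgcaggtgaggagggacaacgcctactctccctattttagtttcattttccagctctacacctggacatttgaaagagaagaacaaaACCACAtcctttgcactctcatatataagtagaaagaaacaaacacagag
Srgn (chr10:62527446-62527695, minus strand): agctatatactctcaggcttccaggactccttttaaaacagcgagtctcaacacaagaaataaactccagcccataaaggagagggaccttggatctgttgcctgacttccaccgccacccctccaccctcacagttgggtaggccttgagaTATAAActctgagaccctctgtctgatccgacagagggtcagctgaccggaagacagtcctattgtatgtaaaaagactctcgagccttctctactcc
The Gzmb window held an AP-1 motif starting 58 bases before the start and RUNX motifs at 93 and 34 bases, all on the gene's strand. The Gzmc window held a cyclic AMP response motif at 57 bases, and RUNX motifs at 174 bases on the opposite strand and at 108 bases on its own. Gzma held 1 RUNX motif, at 50 bases on the opposite strand, and Srgn held a TATA motif at 98 bases and none of the other motifs in the window shown, that of the more upstream of its RefSeq starts. Among all 32851 RefSeq windows of this length, 6.75% held the AP-1 motif, 1.55% the cyclic AMP response motif, 14% the RUNX motif and 12.4% the TATA motif. The Gzmc window aligned with that of its neighbour Gzmf over 231 bases (84.8% identity) and that of Gzmg over 241 bases (83.8%). Gzmf and Gzmg also held the cyclic AMP response motif. With the windows of Gzmd and Gzme it aligned over 251 bases (83.3% and 84.1% identity), and neither held that motif. These matches describe the letters in the window and not binding.

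Granzyme B became the dominant granzyme transcript. In wt mice of experiments 1, 3 and 5, Gzmb stood at 5.23, 17 and 11.7 FPKM naive, at 53.8, 265 and 38.5 FPKM after 24 h and at 1645, 1527 and 1409 FPKM after 48 h. FPKM are the deposited values per gene length, so they can be compared between genes. The ranges of the 3 times did not overlap, and the 24 h libraries were spread most widely, with experiment 3 far above the others. By 48 h Gzmb had risen 144-fold over naive cells (log2 fold change 7.17, SE 0.85, n = 3, edgeR adjusted p = 1.16e-06), and it rose in each mouse, by 307-fold, 94.6-fold and 123-fold. At 24 h the rise was 11.2-fold (log2 3.48, SE 0.72, edgeR adjusted p = 0.00059), and without the wt mouse of experiment 3 it was 2.53 on the log2 scale. From 24 h to 48 h Gzmb rose another 12.9-fold (log2 3.69, SE 0.72, edgeR adjusted p = 0.00436). That last call was lost without the mouse of experiment 1 (edgeR adjusted p = 0.0905) or of experiment 5 (0.0524), and without that of experiment 3 the log2 value was 5.04. Among 21674 listed genes ordered by FPKM, Gzmb ranked 14, 14 and 18 in wt libraries at 48 h, from 7522, 3706 and 5000 in naive ones.

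**Figure D1:**
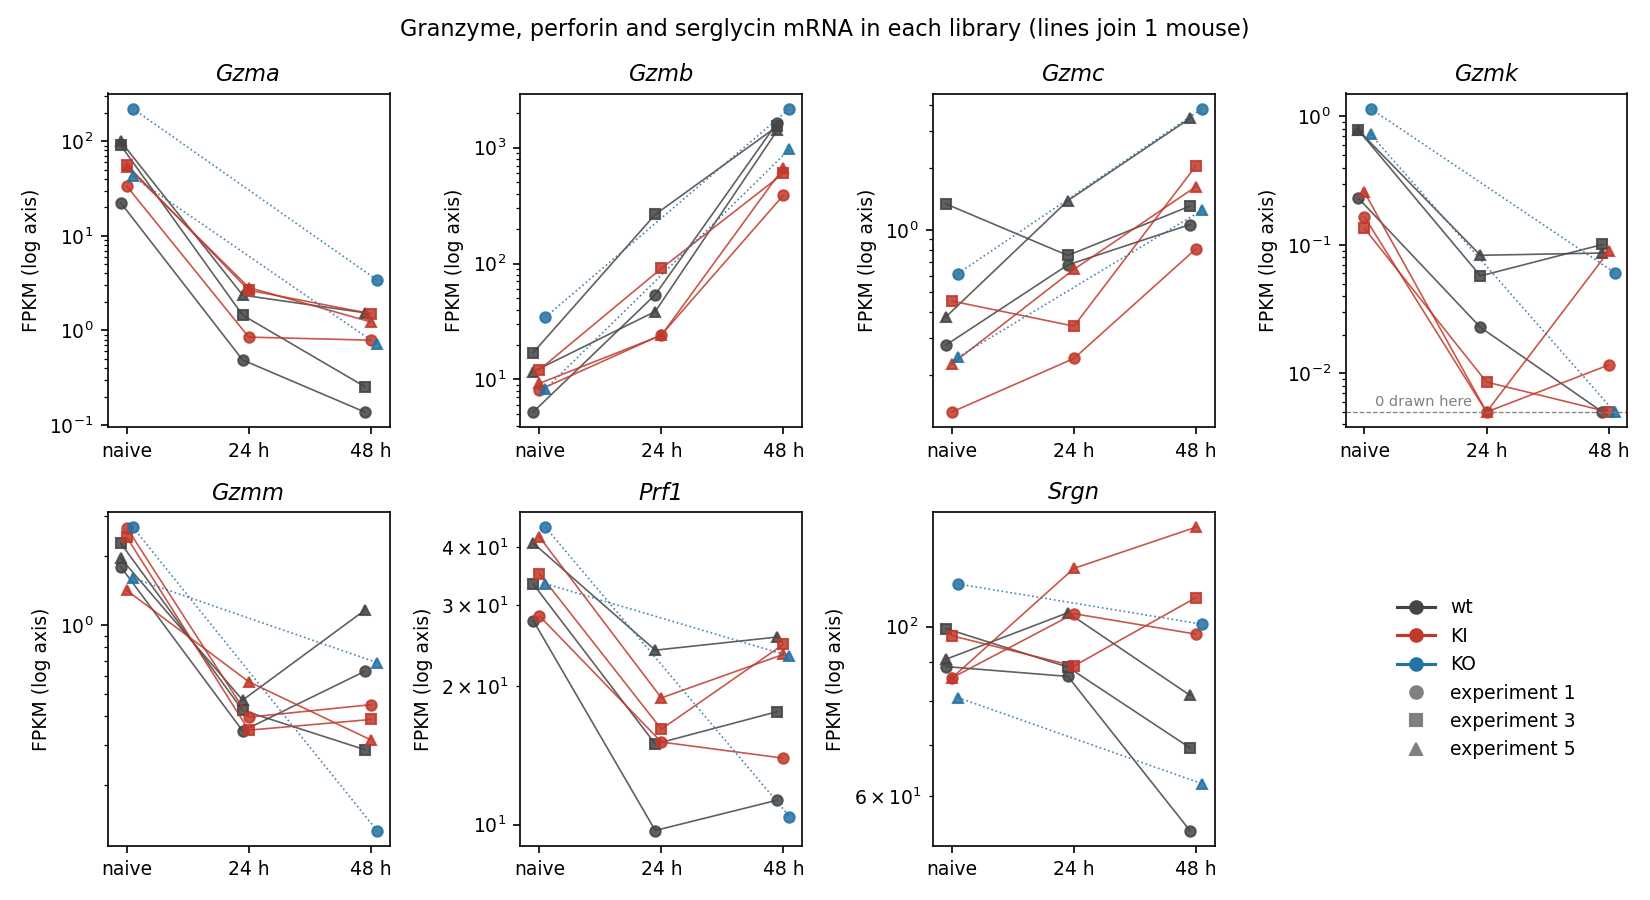
Deposited FPKM (log axis, a separate scale in each panel) of the 7 genes in each of the 22 libraries, by time, with genotype as colour and experiment as symbol. Lines join the libraries of 1 mouse, dotted for KO, which has no 24 h library. Gzmb climbs to 1409 to 1645 FPKM in wt and 388 to 669 FPKM in KI at 48 h. Gzma drops from 22.5 FPKM or more to 3.42 FPKM or less. For Srgn at 48 h every KI library lies above every wt library, and the KO libraries lie at 100.7 and 62.3 FPKM.

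Granzyme A showed the opposite course. Gzma stood at 22.5, 91.1 and 100.2 FPKM in naive wt cells of experiments 1, 3 and 5, at 0.487, 1.45 and 2.36 FPKM after 24 h and at 0.137, 0.255 and 1.54 FPKM after 48 h. Naive and activated libraries were far apart, whereas the 24 h and 48 h ranges overlapped. At 48 h the fall was 105-fold (log2 -6.72, SE 0.96, edgeR adjusted p = 1.06e-05), seen in 3 of 3 mice, and without the wt mouse of experiment 5 it was -8.07 on the log2 scale. At 24 h the fall was 46.1-fold (log2 -5.53, SE 0.89, edgeR adjusted p = 5.7e-05). From 24 h to 48 h the log2 fold change was -1.19 (SE 0.86, edgeR adjusted p = 0.471), and with the mouse as a block it was -1.35 (edgeR adjusted p = 0.0284).

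NK cells express Gzma strongly, and their markers moved with it, as did those of some other cell types. The summed level of the 6 NK markers was 23.6 to 83.6 CPM in naive wt, 30.3 to 53.3 CPM in naive KI and 26.9 to 172 CPM in naive KO libraries. It was 3.75 to 7.23 CPM in wt and 4.16 to 5.93 CPM in KI at 24 h, and 2.46 to 9.64 CPM over all libraries at 48 h. None of the 6 markers was at 0 throughout any group. In wt, Ncr1, which encodes an NK activating receptor, was at 5.02, 17.9 and 16.8 CPM naive. After 48 h it was at 0.0119, 0.0126 and 0.107 CPM. The sum of all 6 markers fell less steeply, to 2.77 to 9.60 CPM in wt at 48 h. Over all 22 libraries the gene whose log2 level followed Gzma most closely was Klrb1c, the NK1.1 antigen (Pearson r = 0.99, a description across libraries that share time, genotype and mouse). By Spearman correlation over the same libraries the 3 closest genes were Tifa, Itgax and Maf, without Klrb1c. Over the 18 KI and wt libraries Tbc1d9 followed Gzma more closely than Klrb1c by Pearson r. From naive to 48 h in wt the summed level went from 255 to 411 CPM to 34.5 to 111 CPM for 5 B cell markers. It went from 95.8 to 223 CPM to 13.5 to 22.3 CPM for 6 markers of monocytes, macrophages and neutrophils, and from 31.8 to 53.8 CPM to 3.98 to 11.3 CPM for 4 gamma delta T cell markers. The 6 CD8 T cell markers also fell, from 4201 to 5062 CPM to 2524 to 3224 CPM. Regulatory T cell markers went up, from 23.2 to 25.2 CPM to 27.7 to 32.3 CPM. For CD4 T cell markers (34.0 to 71.5 and 20.2 to 51.4 CPM) and memory CD8 T cell markers (912 to 1109 and 712 to 1021 CPM) the ranges overlapped. The part of any of these cells in the falls of Gzma, Gzmk, Gzmm and Prf1 was not tested. In these bulk samples fewer cells of a type and less RNA per cell cannot be told apart.

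**Figure D2:**
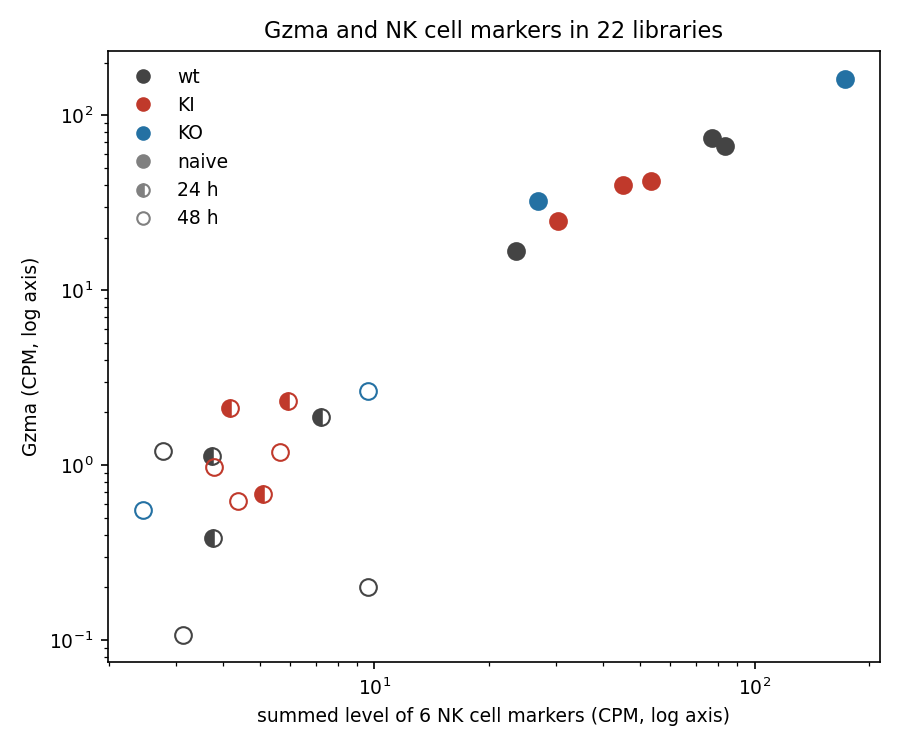
Gzma (CPM, log axis) against the summed CPM of 6 NK cell markers (log axis) in the 22 libraries, coloured by genotype, with filled symbols for naive, left-filled for 24 h and open for 48 h. The 8 naive libraries sit at the upper right, led by the naive library of the KO mouse of experiment 1 at 172 CPM of NK markers, and the activated libraries, all below 10 CPM of NK markers, sit at the lower left.

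Granzymes K and M also fell, from much lower levels. Gzmk had 21, 61 and 58 counts in the naive wt libraries, 2, 6 and 9 counts at 24 h and 0, 10 and 8 counts at 48 h. These counts are small, and the activated libraries lay below all naive ones. Gzmk passed the low count filter only through naive libraries, so its tests against naive cells are no support for a fall. The log2 fold change was -3.31 (SE 1.00, edgeR adjusted p = 0.0104) at 24 h and -3.15 (SE 0.99, edgeR adjusted p = 0.0113) at 48 h. The 24 h call was lost without the wt mouse of experiment 3 (edgeR adjusted p = 0.0779) and the 48 h call without that of experiment 5 (0.0545). Gzmm stood at 1.81, 2.29 and 1.97 FPKM in naive wt cells, at 0.344, 0.424 and 0.470 FPKM after 24 h and at 0.628, 0.285 and 1.16 FPKM after 48 h. All activated libraries were below the naive ones. Its log2 fold change was -2.20 (SE 0.50, edgeR adjusted p = 0.0014) at 24 h and -1.46 (SE 0.49, edgeR adjusted p = 0.0159) at 48 h. The 48 h call was lost without the mouse of experiment 1 (edgeR adjusted p = 0.0812) or 3 (0.149), and without that of experiment 5 the log2 value was -2.07.

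Granzyme C passed the test at 48 h and not at 24 h (log2 0.60, SE 0.66, edgeR adjusted p = 0.468), at far lower levels than granzyme B. Gzmc stood at 0.278, 1.34 and 0.380 FPKM in naive wt cells, at 0.678, 0.753 and 1.38 FPKM after 24 h and at 1.06, 1.30 and 3.45 FPKM after 48 h. In FPKM the naive library of experiment 3 was above its own 48 h library, and in CPM below it (1.04 against 1.10 CPM). The times overlapped in both units. At 48 h the log2 fold change was 1.64 (SE 0.66, edgeR adjusted p = 0.0422), with 74 to 215 counts per library. That call was lost without the mouse of experiment 1 (edgeR adjusted p = 0.121) or 5 (0.487, log2 0.66), with upper-quartile factors (0.076), with library size alone (0.0566) and with the wt groups fitted alone (0.0786). It was also lost with limma on the deposited variance-stabilised values (adjusted p = 0.0693). Without the mouse of experiment 3 the log2 value was 2.85. Of the other rodent granzymes, Gzmd, Gzme, Gzmg and Gzmn had between 0 and 3 counts in every library and were not tested. Gzmf had 0 counts in all 8 naive libraries, 2 to 7 counts in wt at 24 h and 5 to 15 counts in wt at 48 h. It passed the low count filter only through activated libraries, so its test against naive cells is no support for a rise and is not given. No fold is given for Gzmf, since the naive group is at 0.

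The make-up of the granzyme mRNA pool is described next. As a share of the summed FPKM of the 5 granzymes, Gzma took 74.9% to 87.1% in naive wt cells and Gzmb 10.1% to 17.4%. After 24 h Gzmb took 90.0% to 99.0% and Gzma 0.542% to 5.51%, and after 48 h Gzmb took 99.6% to 99.9%. The sum itself went from 85.9 FPKM on average in naive wt (30.0 to 115 FPKM) to 122 FPKM at 24 h (42.8 to 268 FPKM) and 1530 FPKM at 48 h (1415 to 1647 FPKM). In KI cells these shares were, for Gzma, 75.2% to 82.9% naive and, for Gzmb, 85.6% to 96.4% at 24 h and 99.3% to 99.5% at 48 h. In the libraries labelled KO, Gzma took 79.7% and 85.1% naive and Gzmb 99.7% in both at 48 h.

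**Figure D3:**
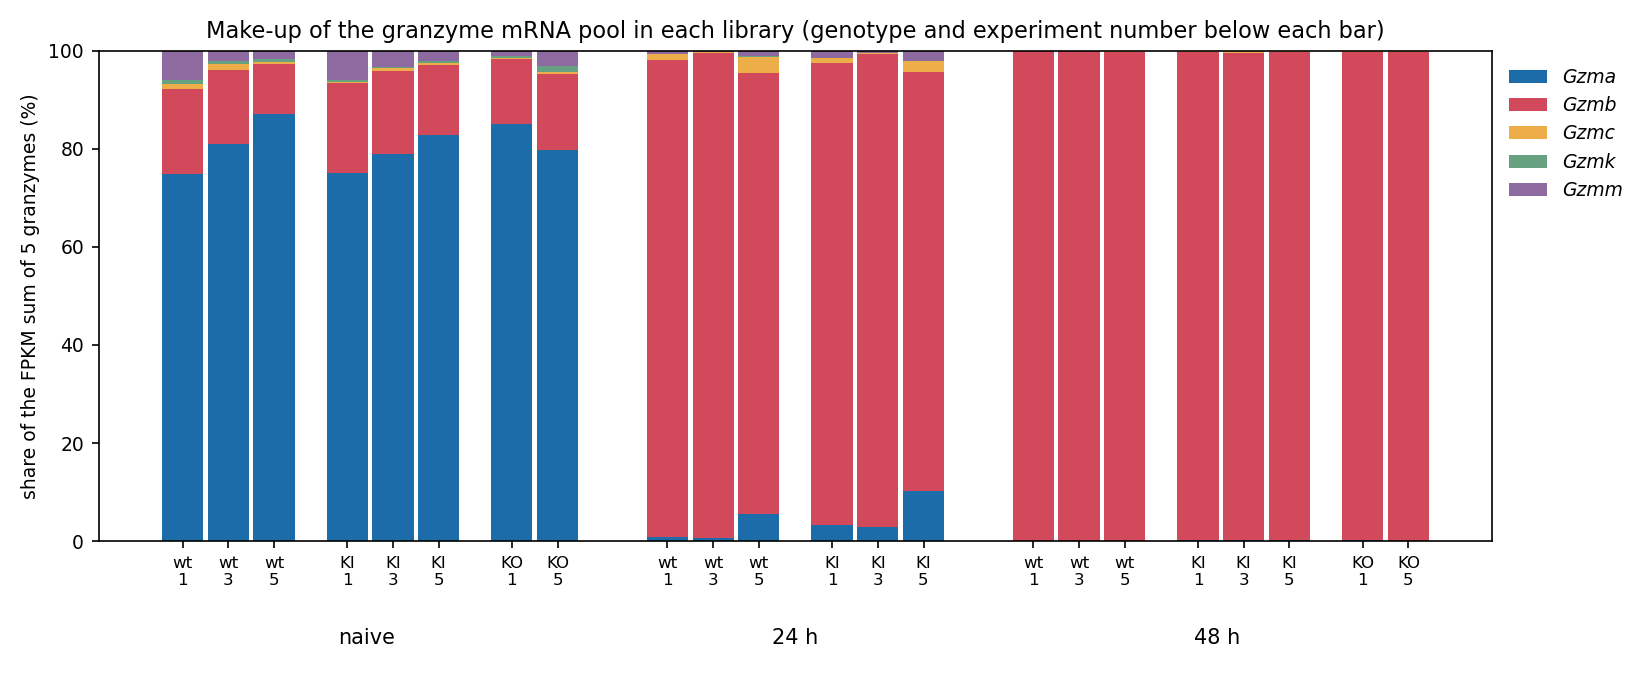
Share of each granzyme in the summed FPKM of Gzma, Gzmb, Gzmc, Gzmk and Gzmm in every library, grouped by time, with genotype and experiment number under each bar. Naive bars are mostly Gzma (74.9% or more), 24 h bars mostly Gzmb (85.6% or more) and 48 h bars almost wholly Gzmb (99.3% or more).

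Perforin mRNA fell on activation and did not follow Gzmb. Prf1 stood at 27.7, 33.3 and 40.8 FPKM in naive wt cells of experiments 1, 3 and 5, at 9.71, 15 and 23.9 FPKM after 24 h and at 11.3, 17.6 and 25.5 FPKM after 48 h. Every activated library was below every naive one, and the order of the experiments was the same at each time. The log2 fold change was -0.98 (SE 0.34, edgeR adjusted p = 0.025) at 24 h and -0.82 (SE 0.34, edgeR adjusted p = 0.0494) at 48 h, with 3 of 3 mice lower at both times. The 24 h call was lost without the mouse of experiment 1 (edgeR adjusted p = 0.0848) or 3 (0.124), and so was the 48 h call (0.134 and 0.146), which was also lost with limma on the deposited variance-stabilised values (limma adjusted p = 0.054). At 48 h Gzmb thus exceeded Prf1 in FPKM in every wt library, while in naive wt cells Prf1 exceeded Gzmb in every library.

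Serglycin, the granule matrix, gave no call in wt cells after activation. Srgn stood at 88.6, 99.4 and 90.6 FPKM in naive wt cells of experiments 1, 3 and 5, at 86.0, 88.5 and 104 FPKM after 24 h and at 54.1, 69.4 and 81.3 FPKM after 48 h. The 48 h libraries were below all naive ones. The log2 fold change at 48 h was -0.36 (SE 0.19, edgeR adjusted p = 0.113), and with the mouse as a block it was -0.37 (edgeR adjusted p = 0.0322). With upper-quartile factors, which moved the median of all genes by -0.22 in this comparison, it was -0.57 (edgeR adjusted p = 0.0153). At 24 h it was 0.09 (SE 0.19, edgeR adjusted p = 0.712).

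In wt cells 5 of 7 members passed the test at 24 h against naive, 1 higher and 4 lower, where 48.4% of all tested genes did (26.3% higher and 22% lower). At 48 h against naive 6 of 7 passed, 2 higher and 4 lower, where 56.4% of all genes did (29.6% higher and 26.8% lower), and from 24 h to 48 h only Gzmb passed, where 7.45% did. The median log2 fold change of the members was -0.82 at 48 h against naive and that of all tested genes -0.04. These comparisons share libraries, the naive ones or those of 48 h. Gzmk, counted among the 4 lower at both times, passed the low count filter only through naive libraries. Without 1 mouse at a time, 3 to 4 members passed at 48 h and 3 to 5 at 24 h. The share of all genes that passed in those fits is not given, so these counts describe the fits and not the members.

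Between KI and wt cells Gzmb did not pass the test at any time, although its 48 h values did not overlap. In KI mice of experiments 1, 3 and 5, Gzmb stood at 8.12, 12.1 and 9.23 FPKM naive, at 24.2, 90.7 and 24.0 FPKM after 24 h and at 388, 598 and 669 FPKM after 48 h. The KI and wt ranges overlapped naive and at 24 h, while at 48 h every KI library was below every wt library. Within experiments 1, 3 and 5 the KI level was 24.0%, 38.9% and 48.3% of wt at 48 h, 46.5%, 35.3% and 64.6% at 24 h and 151%, 73.4% and 79.8% naive. At 48 h the log2 fold change against wt was -1.46 (SE 0.66, unadjusted p = 0.0401) and did not pass edgeR's test across all genes (adjusted p = 0.25). With only the KI and wt 48 h libraries in the fit the same difference passed (log2 -1.45, edgeR adjusted p = 0.0359). At 24 h the log2 fold change was -1.32 (SE 0.66, edgeR adjusted p = 0.578), and without the wt mouse of experiment 3 it was 0.03. In naive cells it was -0.19 (SE 0.66, edgeR adjusted p = 1). In order of FPKM, Gzmb ranked 65, 35 and 38 in KI libraries at 48 h against 14, 14 and 18 in wt.

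Serglycin differed in the other direction and was the only member that passed the test between KI and wt. At 48 h Srgn stood at 97.8, 109 and 135 FPKM in KI mice of experiments 1, 3 and 5 and at 54.1, 69.4 and 81.3 FPKM in wt. Every KI library was above every wt library, and the KI level was 184%, 156% and 169% of wt within the experiments. The log2 fold change was 0.75 (SE 0.19, edgeR adjusted p = 0.0287), where 4.2% of all tested genes passed. With the experiment as a block it stayed past the threshold (edgeR adjusted p = 0.0355) and with DESeq2 as well (0.0058), but not with only the groups compared in the fit (edgeR adjusted p = 0.112). Without 1 mouse the edgeR adjusted p was 0.108 (KI 1), 0.0874 (KI 3), 0.135 (KI 5), 0.235 (wt 1), 0.0589 (wt 3) and 0.0355 (wt 5). At 48 h the summed gamma delta T cell markers were at 14.5 to 20.1 CPM in KI and 3.98 to 11.3 CPM in wt. Regulatory T cell markers were at 32.7 to 41.6 CPM in KI and 27.7 to 32.3 CPM in wt. B cell markers, at 94.7 to 193 CPM in KI and 34.5 to 111 CPM in wt, overlapped. The part of these cells in the Srgn and Gzmb values was not tested. In naive cells Srgn stood at 85.7, 97.3 and 85.7 FPKM in KI against 88.6, 99.4 and 90.6 FPKM in wt, which overlap (log2 -0.04, SE 0.19, edgeR adjusted p = 1). At 24 h the KI level was 124%, 103% and 118% of wt (log2 0.20, SE 0.19, edgeR adjusted p = 0.794).

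**Figure D4:**
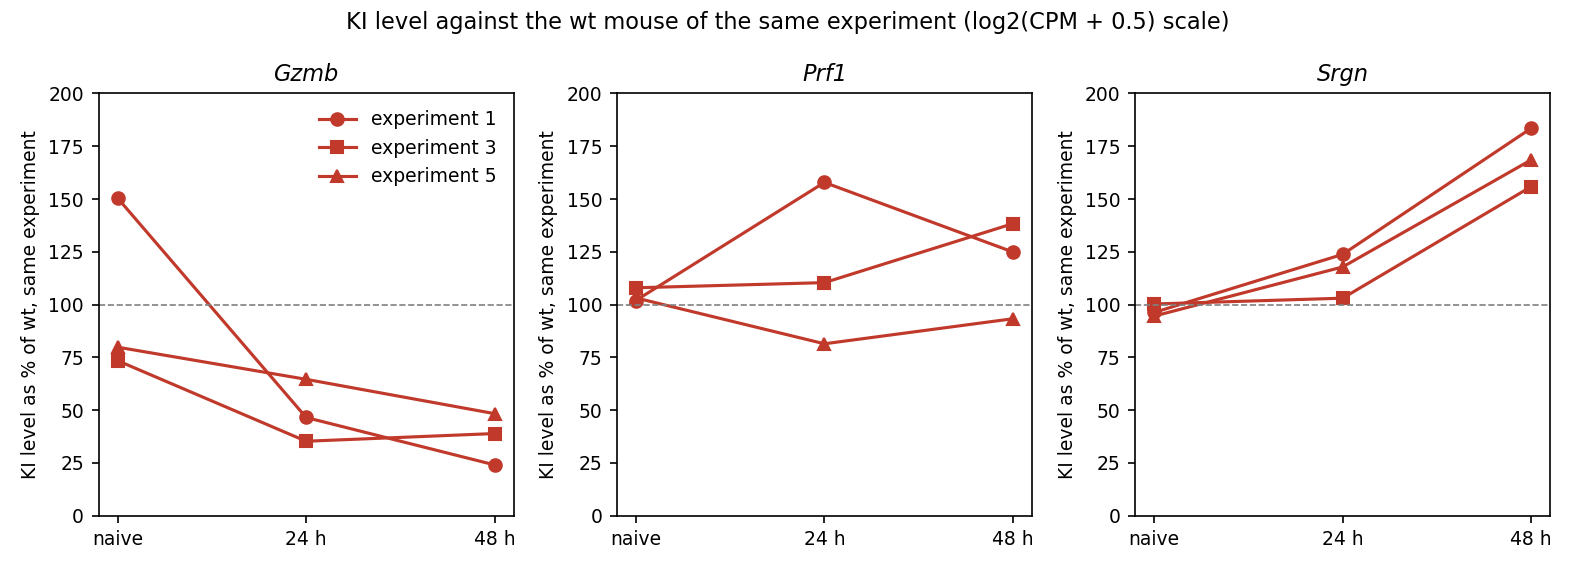
KI level of Gzmb, Prf1 and Srgn as a percentage of the wt mouse of the same experiment (computed on the log2(CPM + 0.5) scale) at each time, 1 line per experiment, with the dashed line at 100%. At 48 h Gzmb lies at 24.0% to 48.3% and Srgn at 156% to 184% of wt in all 3 experiments, while Prf1 lies at 93.3% to 138%.

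The remaining members gave no call between KI and wt at any time. Prf1 at 48 h stood at 13.9, 24.6 and 23.4 FPKM in KI against 11.3, 17.6 and 25.5 FPKM in wt, which overlap (log2 0.20, SE 0.34, edgeR adjusted p = 0.821). Gzma at 48 h stood at 0.789, 1.51 and 1.23 FPKM in KI against 0.137, 0.255 and 1.54 FPKM in wt (log2 0.90, SE 0.87, edgeR adjusted p = 0.652). The wt mouse of experiment 5 was above all KI mice, and the other wt mice below them. Gzmm and Gzmc at 48 h gave log2 -0.83 (SE 0.49) and -0.37 (SE 0.64) with edgeR adjusted p of 0.409 and 0.825. Gzmk had 0, 1 and 0 counts in KI at 24 h against 2, 6 and 9 in wt (unadjusted p = 0.0235, edgeR adjusted p = 0.496). In naive cells 0 of 7 members passed between KI and wt with edgeR or DESeq2, none had an unadjusted p under 0.05, and 0.0803% of all genes passed. At 24 h 0 of 7 passed with either tool, 1 had an unadjusted p under 0.05 and 0.00472% of all genes passed.

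**Figure D5:**
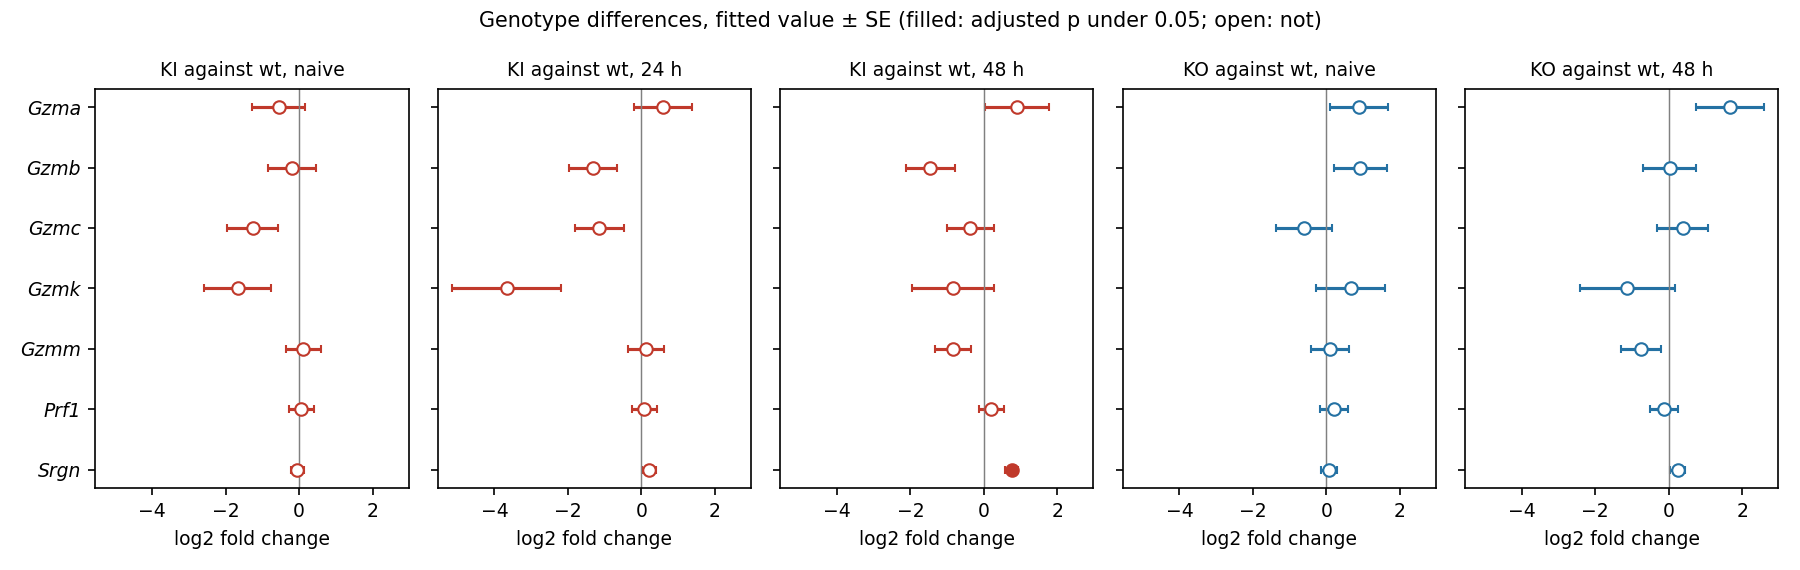
Fitted log2 fold change ± SE of the 7 genes in 5 comparisons, KI against wt naive, at 24 h and at 48 h and KO against wt naive and at 48 h, each against the same wt libraries of that time. Filled symbols passed an edgeR adjusted p of 0.05; only Srgn in KI at 48 h (0.75) did, and Gzmb in KI lies at -1.32 at 24 h and -1.46 at 48 h.

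Activation was also tested within KI cells. At 24 h against naive 5 of 7 members passed, 1 higher and 4 lower, where 38.7% of all genes did (22.9% higher and 15.8% lower): Gzmb rose (log2 2.35, SE 0.68, edgeR adjusted p = 0.0109), and Gzma (-4.37), Gzmk, Gzmm (-2.19) and Prf1 (-0.96) fell. The Prf1 call was lost without any 1 of the 3 KI mice (edgeR adjusted p = 0.0904 to 0.158), and that of Gzmb without the KI mouse of experiment 3 (0.159) or with limma on the deposited variance-stabilised values (limma adjusted p = 0.063). Gzmk went from 13, 11 and 22 counts to 0, 1 and 0, too few for a fold. It passed the low count filter only through naive libraries, so its calls in KI are no support for a fall. At 48 h against naive 4 of 7 passed, where 48.7% of all genes did (26.6% higher and 22.1% lower): Gzmb (log2 5.90, SE 0.80, edgeR adjusted p = 8.45e-06) and Gzmc (2.54, SE 0.70, 0.00603) rose, and Gzma (-5.26, SE 0.89, 9.13e-05) and Gzmm (-2.41, SE 0.51, 0.000695) fell. Gzmb rose 49-fold, 50.1-fold and 74.3-fold within the KI mice of experiments 1, 3 and 5. The Gzmc call was lost without the KI mouse of experiment 5 (edgeR adjusted p = 0.0509). The 48.7% belongs to the fit without a block. With the mouse as a block Gzmk (log2 -2.63, edgeR adjusted p = 0.0267), Prf1 (-0.69, 0.0176) and Srgn (0.42, 0.0204) passed at 48 h as well. These 3 also passed with only the KI groups in the fit, and each of them with some other setting: Gzmk with DESeq2 (adjusted p = 0.0448) or without the KI mouse of experiment 5 (0.0446), Prf1 with upper-quartile factors (0.0429) or the experiment as a block (0.0202), and Srgn with no filter (0.0444). Without the block the Srgn value was 0.44 (SE 0.19, edgeR adjusted p = 0.0593). From 24 h to 48 h only Gzmb passed (log2 3.56, SE 0.72, edgeR adjusted p = 0.0113), where 2.68% of all genes did, a call lost without the KI mouse of experiment 1 (0.168) or 5 (0.322). Without the KI mouse of experiment 3 it was 4.43 on the log2 scale.

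Whether activation differed between KI and wt was tested as an interaction. From naive to 48 h, 0 of 7 members passed with edgeR or DESeq2, 1 had an unadjusted p under 0.05 with each tool, and 0.387% of all genes passed. That member was Srgn. Its interaction was 0.79 on the log2 scale (SE 0.26, unadjusted p = 0.00739, edgeR adjusted p = 0.26), and 0.80 (edgeR adjusted p = 0.0799) with the mouse as a block. For Gzmb the interaction was -1.27 (SE 0.93, edgeR adjusted p = 0.731). From naive to 24 h 0 of 7 passed with either tool, none at an unadjusted p under 0.05, where 0% of all genes passed. The same held for the interaction of KO and wt from naive to 48 h. KI cells at 48 h were also set against wt cells at 24 h: Gzmb stood at 388 to 669 FPKM against 38.5 to 265 FPKM (log2 2.23, SE 0.68, edgeR adjusted p = 0.142). With the experiment as a block that difference passed (log2 2.67, edgeR adjusted p = 0.029), as it did without the wt mouse of experiment 3 (3.59, 0.0237). No other member of the 7 had an unadjusted p under 0.05 there, and 0.873% of all genes passed.

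The libraries labelled KO had Gzmb at 34.4 and 8.27 FPKM naive and at 2167 and 969 FPKM after 48 h in experiments 1 and 5. The wt mice of the same experiments had 5.23 and 11.7 FPKM naive and 1645 and 1409 FPKM at 48 h. Experiment 1 lay above and experiment 5 below its wt mouse at both times. Activation passed for 6 of 7 members at 48 h against naive, where 44% of all genes did (23.7% higher and 20.4% lower), 2 higher (Gzmb, log2 6.27, edgeR adjusted p = 6.15e-05, and Gzmc, 2.62, 0.0169) and 4 lower (Gzma, -5.94, 0.000304, Gzmk, -4.93, 0.00621, Gzmm, -2.31, 0.00518, and Prf1, -1.14, 0.0352). Without the mouse of experiment 1, only Gzma (log2 -5.85, edgeR adjusted p = 0.0027), Gzmb (6.92, 0.000619) and Gzmk (0.011) passed, and Gzmc (0.112), Gzmm (-1.18, 0.174) and Prf1 (-0.47, 0.516) did not. Without the mouse of experiment 5, Gzmc (edgeR adjusted p = 0.0638) and Gzmk (0.0589) did not pass, and Gzmm was at -4.32 and Prf1 at -2.01. With only the KO groups in the fit Gzmb alone passed, and the edgeR adjusted p of the other 5 was 0.0543 (Gzma) to 0.185 (Prf1). Each fit without a mouse leaves KO with 1 mouse, whose spread is taken from the other groups. Gzmk passed the low count filter only through naive libraries, so its calls here are no support for a fall.

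Against wt, 0 of 7 members passed in KO at either time with edgeR or DESeq2, and none had an unadjusted p under 0.05, where 0.0236% of all genes passed naive and 0.0283% at 48 h. Naive Gzma stood at 221 and 42.6 FPKM in KO experiments 1 and 5 against 22.5 to 100.2 FPKM in wt. The fitted log2 difference was 0.89 (SE 0.80) with both mice and -0.71 without that of experiment 1. For naive Gzmb these values were 0.92 (SE 0.72) and -0.42. The NK, B cell and Cd4 values of that mouse's naive library were the highest of all naive libraries, and their part in its granzyme values was not tested. At 48 h the summed CD4 T cell markers were at 24.6 to 197 CPM in KO, 20.2 to 51.4 CPM in wt and 29.9 to 66.3 CPM in KI. B cell markers were then at 21.8 to 187 CPM in KO and 94.7 to 193 CPM in KI, and NK markers at 2.46 to 9.64 CPM in KO and 2.77 to 9.60 CPM in wt. At 48 h Srgn stood at 100.7 and 62.3 FPKM in KO experiments 1 and 5, which is 184% and 76.2% of wt in the same experiments. Its log2 difference from wt was 0.24 (SE 0.21) with both mice and -0.14 without that of experiment 1, and for Gzma at 48 h these values were 1.67 (SE 0.93) and 0.17. For Gzmb at 48 h they were 0.02 (SE 0.72) and -0.67. Gzmm at 48 h was at 0.126 and 0.686 FPKM (log2 -0.76, SE 0.56, edgeR adjusted p = 0.795), and without the mouse of experiment 1 it was -0.02 (edgeR adjusted p = 1). Without the mouse of experiment 5, so with that of experiment 1 alone, it was -2.46 (edgeR adjusted p = 0.0166). KI and KO were compared with the same wt libraries.

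Inhibitors and processing enzymes of granule proteases were examined as a list of 14 genes. In wt at 48 h against naive 5 of 14 rose and 1 fell, where 29.6% of all genes rose and 26.8% fell, with a median log2 fold change of 0.36 against -0.04 for all genes. Serpinb9, the intracellular inhibitor of granzyme B, rose by 2.69 on the log2 scale (SE 0.29, edgeR adjusted p = 4.51e-07), and Serpinb6b, a related serpin, by 4.11 (SE 0.47, edgeR adjusted p = 7.8e-07). Serpinb9 went from 24.4 ± 4.34 to 157 ± 17.3 CPM (SD, n = 3) in wt and from 24.9 ± 2.97 to 142 ± 40.1 CPM in KI. Ctsc, which encodes the protease that activates progranzymes and was picked out after its values were seen, was at 111 ± 19.3 CPM naive and 108 ± 9.61 CPM at 48 h in wt. Ctsh, a lysosomal cathepsin, fell (log2 -2.45, SE 0.79, edgeR adjusted p = 0.013). Between KI and wt at 48 h 1 of the 14 passed, where 4.2% of all tested genes did. It was Ctsl, the cathepsin L gene, which was lower in KI (9.78 ± 0.81 against 19.2 ± 5.28 CPM, log2 -0.97, SE 0.21, edgeR adjusted p = 0.0133).

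Genes for granule movement and fusion (15 genes, 14 tested) gave 5 that rose and 3 that fell in wt at 48 h against naive, shares near those of all genes (29.6% and 26.8%), with a median of 0.13. Stx11, a SNARE protein needed for granule exocytosis, rose most among the named ones (log2 3.15, SE 0.34, edgeR adjusted p = 3.56e-07), and Rab11a (0.94) and Rab27a (0.75), small GTPases of granule trafficking and docking, also rose. Unc13d (-0.50), which primes granules for fusion, Lyst (-0.93) and Stxbp2 (-0.36) fell. None of the 14 passed between KI and wt at 48 h, where 4.2% of all tested genes did. Enzymes that build the glycosaminoglycan chains carried by serglycin (15 genes, 14 tested) gave 1 that rose and 7 that fell in wt at 48 h, where 29.6% and 26.8% of all genes did, with a median of -0.50. Chst11, a chondroitin sulfotransferase, rose (log2 1.21, edgeR adjusted p = 0.0058), and Chpf2 (-1.47), Xylt2 (-1.14) and Xylt1 (-2.88) fell. Of these enzymes Chpf2, a chondroitin polymerising factor, was the only one that passed between KI and wt at 48 h, against the same 4.2% of all genes. It was higher in KI (log2 0.89, SE 0.14, edgeR adjusted p = 0.00122).

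Death receptor ligands, the killing route that needs no granzyme, were 4 tested genes. In wt at 48 h against naive Lta (log2 2.52, edgeR adjusted p = 0.000128) and Tnf (1.52, 0.0155) rose and Tnfsf10, the TRAIL gene, fell (-0.54, 0.00135). Of all tested genes 29.6% rose and 26.8% fell. Tnfsf10 was higher in KI than in wt at 48 h (log2 0.54, SE 0.13, edgeR adjusted p = 0.0192), where 4.2% of all tested genes passed. Of 15 factors linked to granzyme and perforin transcription, 8 rose and 4 fell in wt at 48 h, against 29.6% and 26.8% of all genes. Il2ra, the high-affinity interleukin-2 receptor chain, rose by a log2 fold change of 6.44, Irf4 by 3.03 and Stat5a by 1.35, while Id2 (-2.41), Prdm1 (-2.11) and Notch1 (-0.66) fell (edgeR adjusted p of 0.00456 or less for these 6). Between KI and wt at 48 h 1 of 15 passed, against 4.2% of all genes: Id2, higher in KI (log2 0.80, SE 0.19, edgeR adjusted p = 0.0201). Of 10 genes linked to quiescence or memory, 2 rose (Ccr7 and Id3) and 6 fell in wt at 48 h, against the same shares of all genes, among them Klf2 (-4.73) and Foxo1 (-1.23). Klf2 was higher in KI than in wt at 48 h (log2 1.58, SE 0.29, edgeR adjusted p = 0.00508).

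Across the 22 libraries the log2 levels of the members formed 2 sets, with Srgn outside both. Gzma correlated with Gzmk at r = 0.86, with Gzmm at 0.87 and with Prf1 at 0.80, and Gzmb with Gzmc at 0.80, while Gzma and Gzmb stood at -0.74. Srgn stood between -0.17 and 0.11 with the other 6. These are descriptions over libraries that share time, genotype and mouse. The genes with the most similar course to Gzmb were Ccnb2, which encodes cyclin B2 (r = 0.98), Arhgap19 and Pif1 (both 0.98). Those most like Gzmk were Klri1 (0.97), Klrg1 (0.92) and Abca9 (0.92), and those most like Gzma besides Klrb1c were Itgax and Maf (both 0.98). For Gzmc they were Serpinb1b (0.89), Crem and Cpt1c (both 0.87), and for Gzmm Taf7 (0.97), Gnmt and Tnfrsf12a (both 0.96). Prf1 was followed most closely by Ccl6, Tef (both 0.89) and C3 (0.88), and Srgn, with no close partner, by Zfp467 (0.76), Ecm1 and Ensa (both 0.75). Over the 18 KI and wt libraries alone at most 1 of the 3 named genes was retained for any of Gzma, Gzmb, Gzmc, Gzmk, Gzmm, Prf1 and Srgn.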

How the data were processed

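RNA from 22 libraries in 8 groups of genotype and time was sequenced as stranded, poly(A)-selected libraries with paired reads of 75 bases, per the labels' protocols. The deposited counts are whole reads per gene, and the authors' tools, per the submitters' processing notes, include TopHat2 2.1.0, Bowtie2 2.2.5, featureCounts and DESeq2 1.6.3 with GRCm38. The strand setting and annotation release are not given in the sources used here. The deposited FPKM equal the normalized count over a length fixed per gene, and the deposited log2 values equal log2(count/factor + 1) to within 5.33e-14. A deposited variance-stabilised log2 table served only as an alternative.

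Counts were tested with edgeR 4.0.16 (R 4.3.3, quasi-likelihood F test, TMM factors, low count filter with a minimum of 10 and a total of 15), with 8 group means fitted over the 22 libraries (14 residual degrees of freedom). P-values were Benjamini-Hochberg adjusted over all 21183 genes tested, and 0.05 was the threshold. SEs are the log2 fold change over the root of F. CPM are counts over TMM-scaled totals, and values within a mouse or experiment use log2(CPM + 0.5). The test was checked on simulated counts. Alternatives were DESeq2 1.42.0, limma 3.58.1, other scalings, no filter, a robust spread, blocks, only the groups compared and each mouse left out. No pair of libraries within a group agreed within sampling noise (lowest chi-square per degree of freedom 14.6).

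The labels name the experiment and the mouse, which pair libraries. Deviations from group means correlated at a median r of 0.387 between KI and wt libraries of 1 experiment (8 of 9 pairs over 0.1) and of 0.222 between times of 1 mouse (19 of 20 pairs over 0.1). Members and gene lists were chosen with earlier results of these data known. Named genes are all members and, from each list, up to 3 genes with the smallest p per direction in wt at 48 h against naive and up to 3 in KI against wt at 48 h, among those past the threshold; 1 gene that this rule names is not reported here. For likeness, the 3 genes with the highest Pearson r per member are named. Promoter windows are RefSeq's (GRCm38.p6).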

Additional observations from a re-analysis of the deposited data

Results flagged for a closer look

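Srgn was the member whose change from naive to 48 h differed most between KI and wt by the test of the difference itself, before adjustment. The interaction was 0.79 on the log2 scale (SE 0.26, unadjusted p = 0.00739), and it did not pass after adjustment over all genes (edgeR adjusted p = 0.26). Within the mice of experiments 1, 3 and 5 Srgn changed from naive to 48 h by 0.30, 0.23 and 0.75 in KI and by -0.63, -0.40 and -0.08 in wt on the log2 scale, upward in 3 of 3 KI mice and downward in 3 of 3 wt mice.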

How the results depend on the processing

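Of 1561 alternative values for single members, 1500 kept the sign of the reported value. The other 61 belonged to members that had not passed the test. Calls were lost in 41 cases and gained in 18. The number of members that passed moved under these settings: with the mouse as a replicate block, 2 from 24 h to 48 h in wt (1 reported) and 7 at 48 h against naive in KI (4 reported). With only the groups compared in the fit it was 7 in KI at 48 h against naive (4 reported) and 1 in KO at 48 h against naive (6 reported). With the experiment as a replicate block it was 1 for KI at 48 h against wt at 24 h (0 reported). The number of all genes that passed is given below for the KO fit and for the experiment block. For the mouse block in wt and KI and for the KI groups fitted alone it is not given. No result about the members is drawn from these counts. The cause was not tested. Blocks changed no other count of members by over 1.5 times.

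Leaving out 1 mouse at a time gave 3 to 5 members in wt at 24 h against naive, 3 to 4 in wt at 48 h, 3 to 4 in KI at 24 h and 3 to 4 in KO at 48 h. It gave 0 to 1 from 24 h to 48 h in wt and in KI, 0 to 1 for KI against wt at 48 h, 0 to 1 for KO against wt at 48 h and 0 to 1 for KI at 48 h against wt at 24 h.

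Over all genes the background counts depended more on the setting. Between KI and wt at 48 h 889 genes passed, 109 with only those groups in the fit and 1714 with DESeq2. In naive cells these were 17, 79 and 58 (37 with no filter), and at 24 h 1 with edgeR, 3 with no filter and 56 with DESeq2. For KO against wt they were 5, 3 and 11 naive (8 with no filter or the experiment block) and 6, 0 and 29 at 48 h. From 24 h to 48 h they were 1578, 373 and 2465 in wt and 567, 1301 and 1256 in KI. For KO at 48 h against naive, 9326 passed and 1373 with only those groups. For KI at 48 h against wt at 24 h they were 185, 467 and 624 (300 with the experiment block), and for the interaction from naive to 48 h 82, 138 and 360 (187 with the mouse block). For the interaction from naive to 24 h they were 0, 3 and 4, and from 24 h to 48 h 1, 0 and 49 (3 with no filter, 2 with either block). Counts under 10 per library limit Gzmk and Gzmf after activation.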
